A study of Drosophila melanogaster with 2 samples.

Results

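Peaks of the zinc finger protein l(3)neo38 were described at 10 genes of the EGFR, Raf and AP-1 pathways of Drosophila. The genes were spi, Egfr, Raf, pnt, aop, aos, sty, Jra, kay and puc, of 13945 annotated protein-coding genes. They were chosen by peak values of these same data, so their numbers of peaks and their signal values are given as descriptions. A thresholded summit, the highest point of a peak in the authors' thresholded list, was assigned to a gene when it lay in the gene body or within 2 kb of it. Of 3953 thresholded summits, 49 or 1.24% were assigned to 9 of the 10 genes, and Jra had none.

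All embryos belonged to 1 group of 2 biological replicates. They came from a stable transgenic line in which green fluorescent protein is fused to the C-terminus of l(3)neo38, and were collected at 0 to 24 h with both sexes pooled. Chromatin immunoprecipitation with sequencing used an antibody to GFP on sonicated chromatin of 200 to 800 bp. The labels do not name the promoter of the transgene, and whole embryos of all stages were mixed, so a peak cannot be placed in a tissue or stage. Untagged embryos were not analysed here, and a gene with a summit is a gene with a peak, whose regulation was not measured. The deposited lists hold no read counts, so the depth of either replicate is unknown. Signal values are the authors' own and describe entries within 1 list only.

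The EGF receptor of Drosophila is activated by secreted ligands and signals through Ras, Raf and a chain of kinases to MAP kinase. MAP kinase in turn acts on ETS transcription factors, and the pathway is repeatedly used in the embryo, for instance in the ventral ectoderm and the tracheal system. The JNK kinase cascade acts through AP-1, a dimer of Jun and Fos proteins, and is known for its part in dorsal closure, when the sheets of the epidermis meet over the back of the embryo.

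The sequences around 6 summits are shown because they include the strongest summit of spi, Raf, aop, aos, sty and puc, and because they differ in C-rich content, the feature that an earlier analysis had picked out in these peaks. Each covers 50 bp to either side of the summit on the plus strand of dm6, 5′ to 3′, from the release 6 reference genome of RefSeq. Capitals mark the 8-mers CCCACCCC, CCCCACCC, CCCCCACC or CCACCCCC or their reverse complements, and runs of 5 or more C or G. The windows lie at chr2L:19575289-19575389 for spi, chrX:2305868-2305968 for Raf, chr2L:2173431-2173531 for aop, chr3L:16480792-16480892 for aos, chr3L:3409253-3409353 for sty and chr3R:8114114-8114214 for puc.
spi: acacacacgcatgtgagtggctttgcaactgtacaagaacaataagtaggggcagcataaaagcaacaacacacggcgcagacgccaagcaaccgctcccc
Raf: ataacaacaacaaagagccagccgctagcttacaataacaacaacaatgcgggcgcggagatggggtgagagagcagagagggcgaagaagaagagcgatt
aop: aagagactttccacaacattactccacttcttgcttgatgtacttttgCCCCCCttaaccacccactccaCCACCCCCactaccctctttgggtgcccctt
aos: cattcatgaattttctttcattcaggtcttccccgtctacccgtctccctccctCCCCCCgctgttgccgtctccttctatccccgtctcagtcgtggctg
sty: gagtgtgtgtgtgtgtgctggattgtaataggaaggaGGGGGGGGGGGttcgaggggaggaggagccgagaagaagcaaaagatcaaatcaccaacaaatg
puc: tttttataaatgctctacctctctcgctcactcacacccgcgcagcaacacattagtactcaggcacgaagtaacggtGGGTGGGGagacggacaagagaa

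The windows of spi and Raf held neither an 8-mer nor a run of 5, although these were the summits at pooled ranks 185 and 248 of 30000. The aop window held CCACCCCC and, beside it, a run of 6 C. The puc window held GGGTGGGG, the reverse complement of CCCCACCC. In the aos window the longest run was 6 C, and in the sty window it was 11 G. Strong signal at these genes therefore came both with and without C-rich letters. Over all 49 member summits, 3 windows or 6.12% held 1 of the 8-mers (exact Clopper-Pearson 95% interval 1.28% to 16.9%), against 14.1% of all thresholded summits. A run of 5 C on either strand was found in 18 of 49 windows, 36.7%, against 40.1% of all. The intervals cover counting error over summits only.

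**Figure D1:**
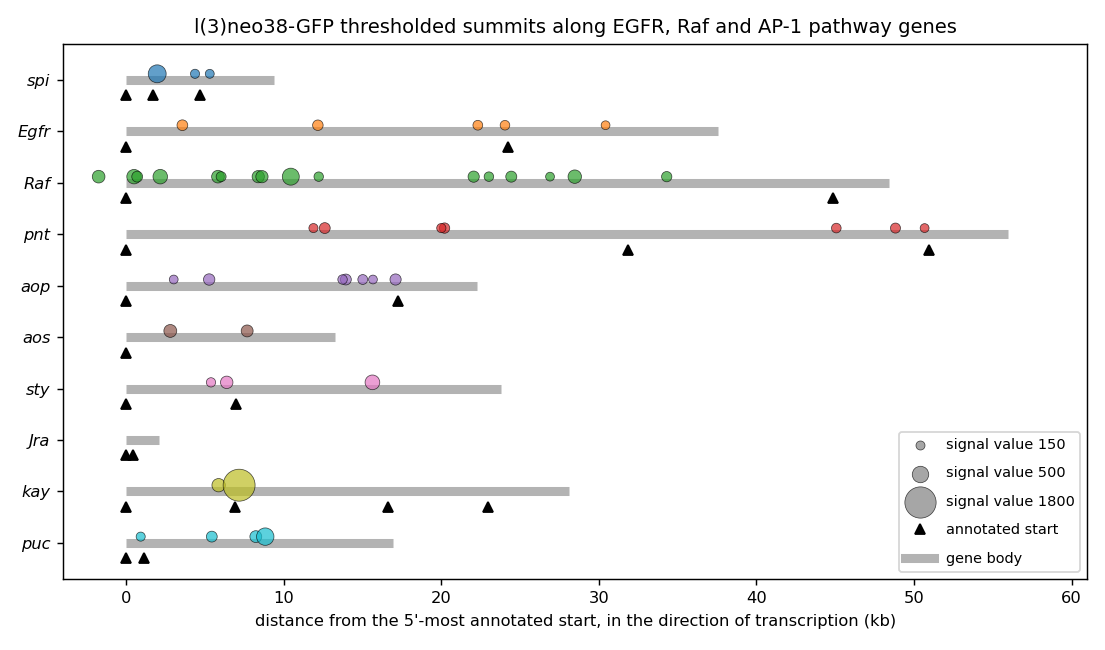
Position of each thresholded summit (circle, area growing with the authors' signal value) along the 10 genes, as distance in kb from the 5′-most annotated start, with gene bodies in grey and annotated starts as triangles. Summits sit mostly inside the gene bodies, 48 of 49, and Raf carries 16 of them while Jra carries none.

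Among the members, 9 of 10 had at least 1 thresholded summit, beside 18.3% of all protein-coding genes. Length differs strongly between these sets, since 9 of the 10 members are at least 9 kb long and the median protein-coding gene body is 2166 bp. All 9 members of that length had a summit, beside 46.1% of the 2133 protein-coding genes of at least 9 kb. The genes were chosen on these peaks, so nothing is read from either difference.

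The 49 summits had a median signal of 217.4 (order-statistic 95% interval 178.8 to 239.8), and the median over all thresholded peaks was 209.6. Their range was 142.4 to 1878, against 140.7 to 3625 for all. The members thus lay on both sides of the median of all peaks, with 26 above it and 23 at or below it. After the kay summit at 1878 the next strongest was that of spi at 592. Most lay in introns, 44 of 49 or 89.8%, against 53.5% of all thresholded summits, and the rule, which takes summits in gene bodies, favours introns. Coding exons held 0 of the 49 (exact 95% upper limit 7.25%), against 1.24% of all. Relative to the protein, 29 summits lay upstream of all coding sequence of their gene, 20 between its first and last codon and 0 downstream. The 29 include all 16 summits of Raf. The same split over all thresholded summits is not given here, so nothing is read from it.

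**Figure D2:**
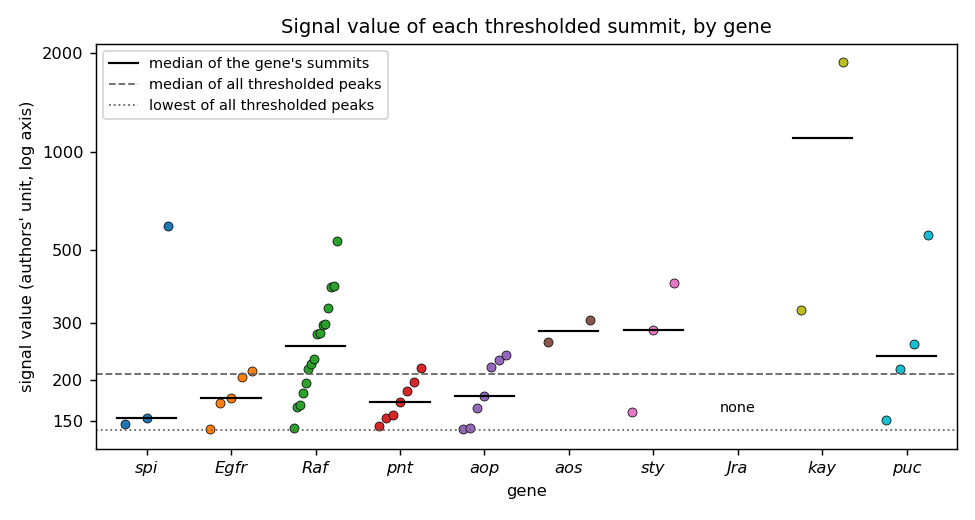
Authors' signal value (log axis) of each of the 49 thresholded summits by gene, with a bar at the median of the gene's summits, a dashed line at the median of all thresholded peaks (209.6) and a dotted line at their lowest value (140.7). The summit of kay at 1878 stands above all others, and those of Egfr and pnt stay at or below 218.1.

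spi (FBgn0005672, chr2L:19567900-19577315, minus strand) encodes Spitz, the main activating ligand of the receptor in the embryo. Its body of 9.42 kb held 3 summits, all in introns and all upstream of the coding sequence. The strongest, at 19575339 with signal 592 and pooled rank 185, lay 248 bp downstream of the start of the transcript spi-RG. It ranked 268 in replicate 1 and 142 in replicate 2, with signals of 305.9 and 286.1 in their own lists. Both replicates thus placed it among their strongest entries. The other summits, with signals 153.5 and 147.2, lay 329 and 606 bp from the start shared by spi-RB and spi-RE. They ranked 3583 and 5730 in replicate 1, and 4755 and 3918 in replicate 2, so neither was among the strongest 3953 entries of both replicates. The 5′-most start, shared by spi-RA and spi-RF, had no summit within 500 bp.

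Egfr (FBgn0003731, chr2R:21522420-21559977, plus strand) encodes the receptor. It held 5 summits in 37.6 kb, all intronic, with signals of 213.3, 204.7, 176.3, 170.2 and 142.4 in 5′ to 3′ order. Signal in the receptor gene was therefore near or below the median of all peaks. The summit nearest to an Egfr start lay 181 bp upstream of Egfr-RB, with signal 170.2, rank 1859 in replicate 1 and rank 7534 in replicate 2. The start of Egfr-RA had its nearest summit at 3574 bp, the strongest of the gene, which ranked 2000 in replicate 1 and 2762 in replicate 2 and held the third C-rich 8-mer match of the members. A further summit, at 21534590, lay nearer to a start of the nested gene CG30286, 2205 bp away, than to a start of Egfr, 12053 bp away. In replicate 2's own strongest 3953 entries Egfr had 3 summits, against 4 in those of replicate 1.

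Raf (FBgn0003079, chrX:2295466-2343870, plus strand) encodes the kinase that passes the signal from Ras to the MAP kinase chain, downstream of the EGF receptor and of other receptors such as Torso. With 16 summits in the body of 48.4 kb or within 2 kb of it, Raf had the most of the members, and 4 of the 13945 protein-coding genes had more. Among protein-coding genes of at least 9 kb, 0.188% had more summits than Raf. The strongest 3953 entries of the replicates' own lists gave 14 summits in replicate 1 and 17 in replicate 2. Some of these summits are close pairs with overlapping intervals, and counting summits within 250 bp of each other once left 13. Per 10 kb of body and flanks Raf had 3.05 summits, ahead of aop with 2.66 and spi with 2.24.

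All 16 Raf summits lay upstream of every annotated codon of the gene, in the long stretch between the start of Raf-RE and that of Raf-RA, which is 44832 bp further downstream, or before it. None lay within 500 bp of either start. The nearest to Raf-RE, at 2295973 with signal 386.4, was 507 bp downstream of it, and ranked 525 in replicate 1 and 665 in replicate 2. The nearest to Raf-RA was 10528 bp away.

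The 8 summits whose nearest annotated start was one of Raf's own all fell in the first 10452 bp of the body. The strongest of all 16 was the last of them, at 2305918 with signal 532.2 and pooled rank 248, whose sequence is given above. It ranked 302 in replicate 1 and 237 in replicate 2, with signals of 294.1 and 242.5. The summit at 2297636, with signal 389.4, ranked 426 in replicate 2 and had no entry of replicate 1 within 100 bp, the nearest being 115 bp away. Those at 2303853 and 2307690, with signals 278.5 and 165.5, also had no entry of replicate 1 within 100 bp, the nearest being 209 and 145 bp away. In all, 13 of 16 matched an entry of both replicates and 10 matched the strongest entries of both.

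The remaining 8 Raf summits lay nearer to an annotated start of another gene or element. Upstream of the body, the summit with signal 296.7 lay 1740 bp from Raf-RE and 315 bp from the start of CG2865. Near the transposable element Tirant{}24, annotated in the reference genome inside Raf, summits lay 148, 1115 and 9684 bp from its start. None of the 30000 pooled entries had its summit inside the 8527 bp of the element. Whether the flies used carry this insertion was not tested, nor whether reads could be placed uniquely in the element, so its lack of entries is not read as a lack of binding. Nearest to lncRNA:CR34052 were summits at 103, 1672 and 2356 bp from its start, and the one at 1672 bp was the strongest of these 8, with signal 333.6 and ranks 827 in replicate 1 and 919 in replicate 2. One more lay 389 bp from lncRNA:CR33218. Without starts of transposable elements, or with starts of protein-coding genes only, 7 of the 16 remained nearer to another gene. The nested gene Ilp6, which encodes an insulin-like peptide, had no thresholded summit nearer than 2638 bp to its starts. A pooled entry of signal 111.9 at rank 5631, below the threshold, lay 159 bp from an Ilp6 start. It ranked 3911 in replicate 1 and 12789 in replicate 2.

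**Figure D3:**
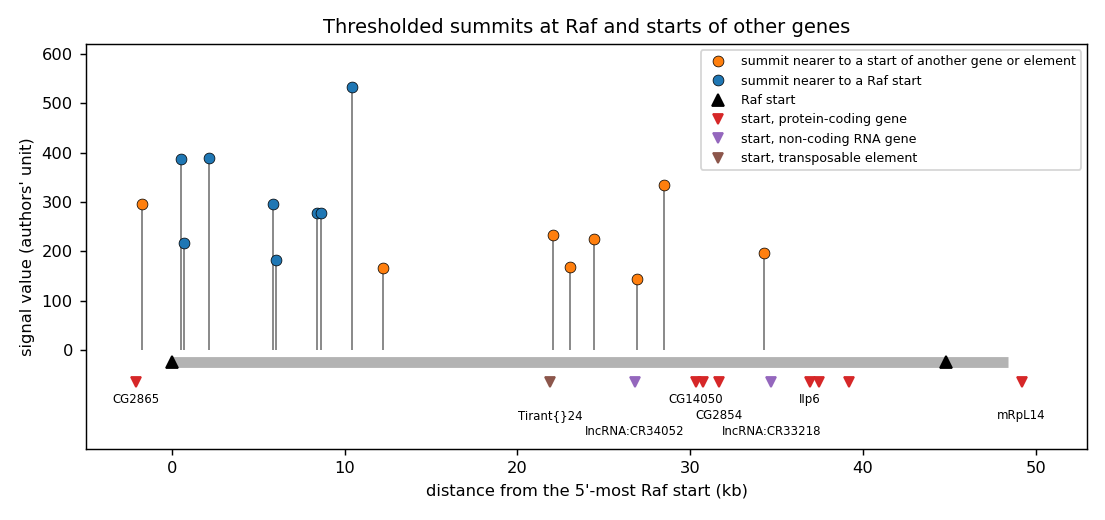
Authors' signal value of the 16 thresholded summits at Raf against distance in kb from the Raf-RE start, coloured by whether the nearest annotated start is that of another gene or of Raf, with starts of Raf, protein-coding genes, non-coding RNA genes and the transposable element marked. The 8 summits whose nearest annotated start is one of Raf's own lie within 10452 bp of the first start. The strongest, at 532.2, is one of them.

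pnt (FBgn0003118, chr3R:23290231-23346167, minus strand) encodes Pointed, an ETS activator that MAP kinase switches on. It had 7 summits over 55.9 kb, with signals from 145.4 to 218.1. The strongest, at 23333558, ranked 1657 in replicate 1 and 2101 in replicate 2 and lay in an exon of the nested non-coding gene lncRNA:CR46090, 245 bp from its start. It was also the only 1 of the 7 found among the strongest entries of both replicates. At 23301102 the replicates differed widely, with rank 25653 in replicate 1 and rank 2201 in replicate 2, and at 23325958 replicate 2 had no entry within 100 bp. Near pnt's own starts there was 1 summit within 500 bp, 261 bp upstream of the start shared by pnt-RC and pnt-RE, and its signal was 145.4. The window at 23297348 held CCGGAA, the core of ETS sites, as 1 of 49 member windows or 2.04%, against 3.06% of all thresholded summits. In all, 4 of the 7 summits were nearer to lncRNA:CR46090 than to a pnt start, and none was nearer to a start of another protein-coding gene.

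aop (FBgn0000097, chr2L:2156484-2178754, minus strand) encodes Yan, an ETS repressor that MAP kinase inactivates. It also had 7 summits, in a body of 22.3 kb, and all lay upstream of its coding sequence. The strongest was the C-rich summit at 2173481 with signal 239.8, ranked 2144 in replicate 1 and 1280 in replicate 2. Next came 2161653 with signal 231.3, which lay 126 bp upstream of the start shared by aop-RA and aop-RD and ranked 2083 and 1274 in replicates 1 and 2. These were in the strongest entries of both replicates. The weakest, at 2163088 with signal 142.4, ranked 18580 in replicate 1 and 1139 in replicate 2. For aop the count of summits rested on the replicate more than for the other members, with 10 in the strongest 3953 entries of replicate 2 and 4 in those of replicate 1. No aop summit was nearer to a start of another gene.

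aos (FBgn0004569, chr3L:16470386-16483650, minus strand) encodes Argos, a secreted inhibitor that binds Spitz. It held 2 summits in 13.3 kb, both intronic. The stronger, at 16480842 with signal 305.5, ranked 700 in replicate 1 and 1533 in replicate 2. The other, at 16475966 with signal 263, ranked 1985 in replicate 1 and 1009 in replicate 2. Both were therefore among the strongest entries of both replicates, in opposite order. They lay 2808 and 7684 bp downstream of the single aos start, where a pooled entry of signal 81.24 at 9 bp stayed below the threshold. aos lies inside CG33158, a gene of 76964 bp on the opposite strand, so the same summits lie within the body of a second gene.

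sty (FBgn0014388, chr3L:3401153-3424935, minus strand) encodes Sprouty, an intracellular inhibitor of the pathway. It had 3 summits in 23.8 kb, all upstream of the coding sequence. The strongest, at 3409303 with signal 397.5, ranked 602 in replicate 1 and 504 in replicate 2. It lay 8658 bp from the start of sty-RB and 2884 bp from an annotated non-coding RNA, FBtr0304360_df_nrg. The summit at 3418548, with signal 286.1, lay 587 bp upstream of the start of sty-RB and ranked 1013 in replicate 1 and 1290 in replicate 2. For the last, at 3419546 with signal 159.6, the ranks were 2341 and 7132. All 3 windows of sty held a run of 5 C on one strand, and none held an 8-mer.

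kay (FBgn0001297, chr3R:29765995-29794113, plus strand) encodes the Fos partner of AP-1 and had the strongest summit of the 49. That peak, at chr3R:29772765-29773476 with its summit at 29773169, had a signal of 1878 and ranked 4 of 30000 in the pooled list. It ranked 3 in replicate 1 and 11 in replicate 2, with signals of 1268 and 613.5 in their own lists. The summit lay in the 5′ UTR 277 bp downstream of the start shared by kay-RA and kay-RG, 1 of 4 start positions of the gene. No sequence is shown for it because the window lies in UTR. Its window was the richest in G and C of all members, at 71.3%, and held a run of 5 C but no 8-mer. The second kay summit, at 29771867 with signal 327.6, lay 1025 bp upstream of the same start, at ranks 1842 in replicate 1 and 385 in replicate 2. The starts of kay-RD, kay-RB and kay-RF had their nearest summits 5872, 9440 and 15767 bp away. With 2 summits in 28.1 kb, kay had the lowest density of the 9 genes, 0.623 per 10 kb.

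Jra (FBgn0001291, chr2R:10096480-10098556, plus strand), which encodes the Jun partner, had no thresholded summit. It is the shortest member, at 2.08 kb. The pooled list gave 2 entries for it, a signal of 45.16 at rank 19308, 17 bp from the start shared by Jra-RA and Jra-RC, and a signal of 78.08 at rank 9448. The stronger of these lay 13 bp from a start of 14-3-3zeta and 1108 bp outside the Jra body. Within 5 kb there were thresholded summits at 2309 and 3281 bp from the body, with signals 167.7 and 308.3, and both were nearest to 14-3-3zeta, 171 and 801 bp from its starts. Of the AP-1 genes, kay thus had the strongest summit of the 10 by signal and Jra had none. By density kay was the lowest of the 9 genes with summits, at 0.623 per 10 kb. A thresholded summit was found at 18.3% of all protein-coding genes, so having none is the more common outcome.

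puc (FBgn0243512, chr3R:8105332-8122294, plus strand) encodes Puckered, a phosphatase that AP-1 induces and that shuts off JNK. It held 4 summits in 17 kb. The strongest, at 8114164 with signal 558.2, ranked 220 in replicate 1 and 293 in replicate 2, with signals of 333.9 and 224. It lay in an intron, 7676 bp from the nearest puc start and 161 bp from the start of the nested lncRNA:CR44331. Another, at 8113565 with signal 258.8, lay in an exon of that non-coding gene, 438 bp from its start, and ranked 900 in replicate 1 and 2272 in replicate 2. A summit with signal 217.4 was also nearer to this start than to one of puc. Near puc itself there was 1 summit, 227 bp upstream of the start of puc-RB, with signal 151.9, rank 5979 in replicate 1 and rank 2432 in replicate 2.

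**Figure D4:**
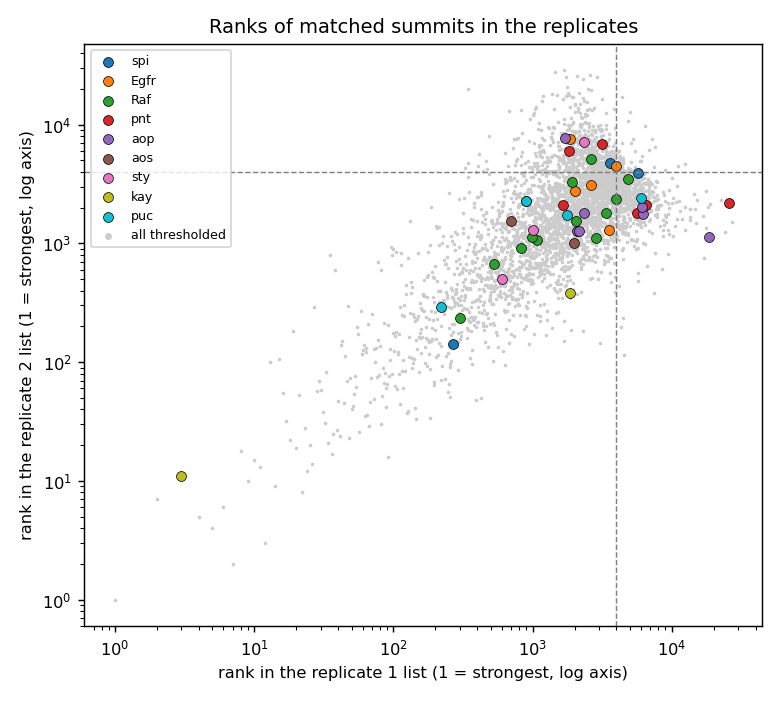
Rank of each thresholded summit in replicate 2 against its rank in replicate 1 (log axes, 1 is the strongest) for those matched in both lists within 100 bp, with members coloured by gene, all others in grey and dashed lines at rank 3953. The strongest kay summit is at ranks 3 and 11, and the weaker member summits lie within the spread of the grey points.

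Across the 9 genes with summits, 7 summits of 6 genes lay within 500 bp of a start of their own gene, beside 8.24% of all protein-coding genes with such a summit. The 6 genes were spi, Egfr, pnt, aop, kay and puc. Within 500 bp of any annotated start lay 14 of 49 summits or 28.6% (exact 95% interval 16.6% to 43.3%), and 33.1% of all thresholded summits. More than 2000 bp from any start lay 26 of 49 or 53.1% (38.3% to 67.5%), and 41.2% of all. Both intervals are wide and include the value of all summits. They treat summits as independent although 16 of the 49 came from Raf, so nothing is read from this. Of the 49, 17 were nearer to a start of another gene or element than to one of their own. By gene these were 8 at Raf, 4 at pnt, 3 at puc and 1 each at Egfr and sty. With starts of protein-coding genes only, 7 remained at Raf and 1 at Egfr, and none at pnt, puc or sty. The share over all thresholded summits is not given here, so nothing is read from this count.

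Replicate support was read from each replicate's own 3953 strongest entries, where an entry within 100 bp of the summit counted as a match. Of the member summits, 27 of 49 or 55.1% (40.2% to 69.3%) matched in both replicates, and 61.8% of all thresholded summits did. In the full lists of 30000 entries, 45 of 49 or 91.8% matched in both, against 90.9% of all. The median offset from the pooled summit was 12 bp in replicate 1 and 21 bp in replicate 2. Over the 45 matched in both, the signals of the replicates had a Spearman correlation of 0.48, against 0.55 over the 3595 such summits of the whole list. Summits share a library and neighbouring ones share reads, so the correlation is given as a description. The better rank was in replicate 1 for 21 of 45 or 46.7% (31.7% to 62.1%), against 48.5% of all.

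Other sequence words were searched in the same windows. GAGAG, the GAGA element, was in 17 of 49 or 34.7% (21.7% to 49.6%), against 27.1% of all. TGANTCA, the AP-1 site, was in 0 of 49 (upper limit 7.25%), against 1.19%. TGAATGAA, the site of Capicua, a repressor that MAP kinase relieves, was in 2 of 49 or 4.08% (0.498% to 14%), against 0.81%, at the Raf summit at 2297636 and in the aos window shown above as its reverse complement TTCATTCA. CAGGTAG, bound by the early activator Zelda, was in 1 of 49 or 2.04% (0.0517% to 10.9%), the aop summit at 2165017, against 0.557% of all. All words were searched on both strands, a match is only a match of letters, and no difference is read from counts this small. The median GC content of the windows was 50.5% for members and 50.5% for all.

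The threshold fell within the range of these genes' entries. Just inside were summits of aop at 142.4 and 142.7, of Egfr at 142.4 and of Raf at 143.5. Just outside were pooled entries of puc at 138, aop at 136.1 and pnt at 130.3. In total 203 pooled entries fell at the 10 genes, 48 of them at Raf, 37 at pnt and 28 at Egfr.

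**Figure D5:**
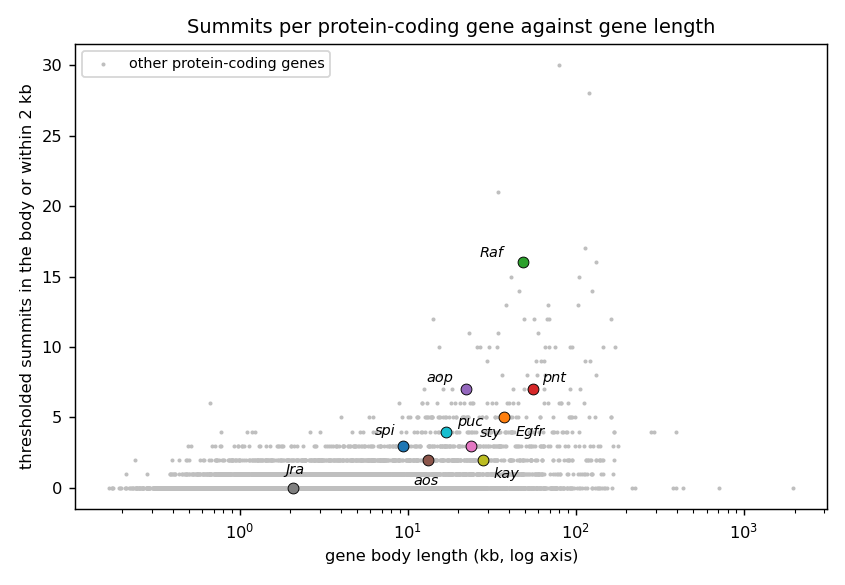
Thresholded summits in the body or within 2 kb against gene body length in kb (log axis) for all protein-coding genes, with the 10 members coloured and named. Raf, with 16 summits, lies below the highest count of 30, and the other members have 0 to 7.

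The wider pathway was described with 50 further genes, listed from textbook knowledge. Of these, 27 or 54% had a thresholded summit, beside 18.3% of all protein-coding genes, and the list was drawn up with results of these data known. In the gene body alone, without flanks, 18 of the 50 had a summit. The share of all protein-coding genes for the body alone is not given here. Among those of at least 9 kb, 15 of 24 had a summit, beside 46.1% of all protein-coding genes of that length. By role, a summit was found at 6 of 7 genes for ligands and their processing, 5 of 8 inhibitors and 4 of 4 nuclear factors. The class of Ras to MAP kinase and adaptors had a summit at 3 of 10 genes. For other receptors it was 2 of 6, and for the JNK cascade and AP-1 7 of 15. Gene lengths differ strongly, for instance 51173 bp at cic and 2507 bp at Ras85D. The strongest summits of Krn, Nf1, Alk, slpr and Rac1, among others, lay nearest to starts of other genes. Shares among genes of like length are not given by class, so nothing is read from the class counts. In the class of Ras to MAP kinase and adaptors, Dsor1, which encodes the kinase below Raf, had 2 summits. cnk also had 2, the stronger with signal 285.5 and nearest to a start of l(2)k01209, 368 bp away. drk, Sos, Ras85D, ksr and rl, which encode an adaptor, the Ras exchange factor, Ras, a scaffold and MAP kinase, had none. None was found at csw or Src42A either. The single summit of dos, which encodes an adaptor, lay 14 bp from a start of RpL8.

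Of the further genes with a summit, ttk was the strongest, with signal 972 at pooled rank 39, 99 bp from its own start. It encodes a zinc finger repressor that is degraded downstream of the pathway in the eye, and ranked 33 in replicate 1 and 82 in replicate 2. msn, which encodes a kinase upstream of JNK, followed with 680.2, and Atf3, a bZIP partner of Jun, with 545.5. The next were hep, which encodes the JNK kinase, at 352.5, gro, a co-repressor, at 348.5, and cic, which encodes Capicua, at 347. Mkk4, a further JNK kinase, had 336.7, and ru, stet and S, which act in ligand processing, had 336.5, 311.5 and 330.3. The summit of gro lay nearest to a start of E(spl)m8-HLH, that of Mkk4 to SLIRP2 and that of ru to tRNA:Glu-CTC-3-3, 5389 bp away against 15290 bp to its own, so these need not belong to the listed gene. None of these 10 reached the signal of kay.

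Genes most like Raf and kay were sought over the 2551 protein-coding genes with a summit, by distance in summits per 10 kb, log2 strongest signal and the share of summits near an own start. Nearest to Raf were otk, CG31668 and CG8031, at distances of 0.0933, 0.132 and 0.174 SD. otk had 7 summits and 3.13 per 10 kb with a strongest signal of 516.2, while CG31668 and CG8031 are short and had 2 summits each. Nearest to kay were erm, mirr and L, at 0.695, 0.867 and 0.894 SD, with strongest signals of 1905, 1797 and 1517. For kay the nearest genes were thus farther away than for Raf.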

How the data were processed

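Signal values, intervals and summits were used as the authors deposited them on dm6. Per the text deposited with the samples, each replicate list came from its alignments and a control, the pooled list from both replicates, and the thresholded list from these after the irreproducible discovery rate procedure. The aligner, peak caller, normalization and threshold were not given in the sources used here. Lists on dm3 were not used here.

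Summits, counted from 1, were compared with Ensembl 115 genes and their transcript starts in Python 3.11.15 with numpy 2.4.6, scipy 1.17.1 and pandas 2.3.3. All 10 members have the same coordinates in RefSeq. Ranks order the 30000 entries of a list by signal. The members, gene lists and sequence words were chosen with earlier results of these data known, so no test was made. All members were named, with the genes nearest to their summits, the 10 strongest further pathway genes and 3 genes most like Raf and kay. RasGAP1 was matched through its older symbol Gap1. Starts of transposable elements were left out of distances to any start. They were kept, unless stated, where a summit was compared with starts of other genes or elements. Alternatives varied the flanks, peak list, replicate, distances, words and starts. Leaving out transposable element starts, the comparison with genes of at least 9 kb and counting summits within 250 bp once were chosen after seeing the data. Counting, distances and word searches were tested on simulated data.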

Additional observations from a re-analysis of the deposited data

How the results depend on the processing

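Of 42 alternative values, 37 stayed within 1.5 times the count or share given, or within its interval. Among the peaks stronger than the median signal the members had 26 summits with a median signal of 282.3, by construction of a stricter list. Matching in the full replicate lists gave 91.8%, since more entries were searched. With all pooled entries, 27 of 48 at Raf were nearer to another start. A run of 5 C, a shorter word, gave 36.7%. The share of member windows with a C-rich 8-mer was 2.041% with 25 bp to either side and 12.24% with 100 bp, against 6.12% with 50 bp. These counted as unchanged only because the interval of 1.28% to 16.9% is wide, and this share depends on the window. The share of all summits at those sizes is not given here. In the strongest entries of 1 replicate alone the members had 39 to 50 summits, at 9 genes in either replicate. By gene, aop had 4 summits without replicate 2 and 10 without replicate 1, and Egfr had 3 without replicate 1. With flanks of 5 kb all 10 genes had a summit, and those added for Jra lay at 14-3-3zeta. Of the 50 further genes, 27 had a summit with flanks of 2 kb, 28 with flanks of 5 kb and 18 in the gene body alone. Among the peaks stronger than the median signal it was 19. The count of 27 thus depends on the flanks and on the peak list. No paired analysis was possible because the samples form 1 group. The unknown depth and the 2 replicates limit the precision of each rank.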

Other observations

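Other genes nested in or overlapping the members were mostly without thresholded summits. Most of them are short, and the share of all genes of such length with a summit inside is not given here. Nothing is therefore read from these counts. The nested protein-coding genes of Raf, CG14050, CG2854 and Ilp6, held 0 thresholded summits, and weaker pooled entries inside them numbered 2, 1 and 2. Those nested in Egfr, CG30286, CG30287, CG33226 and CG30283, also held 0. The microRNA genes mir-2a-1, mir-2a-2 and mir-2b-2 in spi and mir-2282 in sty held neither summits nor pooled entries. Summits were found in the nested non-coding genes lncRNA:CR46090 of pnt and lncRNA:CR44331 of puc, with 1 each. CG33158, which surrounds aos, held 4, of which 2 were those of aos.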
